A study of Homo sapiens with 12 samples.

Results

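The ABC transporter genes are the rows of the count table whose symbol is ABC, a subfamily letter from A to G and a number. The table has 44659 genes and 71 rows that start with such a symbol. Of these, 46 were members, 9 were numbered copies of a member and 16 were other rows such as antisense RNAs and pseudogenes, and both kinds were left out. The members fall into subfamilies A (12 genes), B (9), C (12), D (4), E (1), F (3) and G (5). In melanoma cells treated with BRAF and MEK inhibitors, the members moved in both directions rather than together. ABCB5 rose by 5.46 on the log2 scale and ABCA7 by 3.07 at the end of treatment, while ABCB1, the P-glycoprotein drug pump, was lowest 2 days after the drugs were removed, 3.84 log2 below control.

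RNA was measured in A375, an established human melanoma line, in 4 groups of 3 libraries. CC, the control, had the solvent DMSO for 72 h. TC, harvested at the end of treatment, had 72 h of 500 nM vemurafenib with 500 nM cobimetinib, which inhibit BRAF and MEK. Persister cells (PC) had the same 72 h of both drugs and then 2 days without drug, and recovered cells (RC) had the same and then 9 days without drug. All groups share 1 cell line with no other line beside it, the 2-day and 9-day harvests have no DMSO control of their own, and the cells were passed when needed during recovery, so time in culture and group cannot be told apart for PC and RC. The labels do not say whether the 3 libraries of a group came from separate cultures, and p-values measure only the spread between these libraries. The labels name cytoplasmic RNA from a detergent lysate, with ribosomal RNA depleted.

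ABC proteins carry paired ATP-binding domains and use ATP to move a substrate across a membrane. Subfamily A and parts of B, D and G handle lipids, sterols and fatty acids, several B members serve mitochondria or lysosomes, and ABCB1, ABCG2 and several C members pump drugs and conjugates out of the cell. The E and F proteins have the ATPase domains but no membrane part and work in translation.

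Total counts ran from 37773389 to 55567097 per library, and levels are given as CPM, the count divided by the TMM-scaled library size. The members took between 0.0901% and 0.113% of the counts. A floor of 3 counts was 0.0534 to 0.0785 CPM per library, which covers counting error only. All 7 MAPK target genes used to check drug action (such as DUSP6 and SPRY4) were lower than CC beyond 1.5-fold in both TC and PC, and none was in RC. At an adjusted p under 0.05, 2 of them were still lower in RC, SPRY2 (log2 change -0.77, adjusted p = 0.00297) and SPRY4 (-0.76, 0.0417). The summed level of 6 melanocyte lineage genes was 1360 to 1650 CPM in CC, 6950 to 10100 in TC, 3210 to 4820 in PC and 1330 to 1380 in RC. Defining markers of other cells were low: 3 epithelial genes summed to at most 0.37 CPM, 3 leukocyte genes to at most 0.825, 3 endothelial genes to at most 5.23 and 4 fibroblast genes to at most 6.15. In bulk RNA of this kind, fewer cells of a type and less RNA per cell cannot be told apart.

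Of the 46 members, 32 had a mean library-size-scaled count of at least 10 and were tested. Another 11 had counts but stayed under this minimum (ABCA1, ABCA4, ABCA6, ABCA10, ABCA12, ABCB11, ABCC3, ABCC6, ABCC9, ABCC12 and ABCG8), and ABCC8, ABCC13 and ABCG1 were listed at 0 in every library. ABCA1, which loads cholesterol onto apolipoprotein A-I, had 8, 5 and 14 counts in CC, with TC at 2, 2 and 0, PC at 2, 5 and 7 and RC at 20, 22 and 21. Its RC libraries were the highest and its TC libraries were all at or under the floor, and it was not tested. ABCG1, the partner exporter of cholesterol to HDL, was listed at 0, as was ABCC8, the sulfonylurea receptor of the beta-cell potassium channel. A row at 0 does not by itself show that the gene was silent. LTN1, a gene of the ribosome recycling and termination list, was also at 0 in every library. Subfamily E, F and D members all passed the minimum, against 7 of 12 in A, 8 of 9 in B, 6 of 12 in C and 3 of 5 in G. ABCG5 and ABCC11 each reached the minimum only with their highest group (RC for ABCG5, PC for ABCC11), so a difference between their groups was built into passing, and ABCA9 and ABCD2 had mean scaled counts of 19.5 and 20.6.

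Levels between genes were compared per kilobase of exon, using GENCODE lengths for the 45 members that have one. In CC the 3 highest were ABCE1 at 16.4 ± 2.14 CPM per kb (SD, n = 3), ABCA2 at 14.8 ± 2.94 and ABCB10 at 11.1 ± 0.756, of which ABCE1 and ABCA2 overlapped between libraries. Among the next genes, ABCB1 stood at rank 4 with 10.3 ± 0.81 CPM per kb in CC, at rank 9 in TC with 6.92 ± 0.239, at rank 23 in PC with 0.715 ± 0.0385 and at rank 12 in RC with 4.38 ± 0.179. ABCA2, a lysosomal lipid transporter, led in TC at 20.1 ± 0.549 and was at 13.8 ± 1.06 in PC, and in RC ABCE1 led again at 19.5 ± 0.968.

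Summed over members, the level was 134 ± 5.15 CPM per kb in CC, 149 ± 1.44 in TC, 124 ± 1.85 in PC and 127 ± 2.65 in RC. Subfamily D was at 17.8 ± 0.753 in CC, 30.2 ± 0.3 in TC, 26.4 ± 2.15 in PC and 18.0 ± 0.493 in RC. Its TC and PC libraries lay above those of CC and RC. Subfamily B was 40.9 ± 1.85 in CC, 37.5 ± 1.04 in TC, 29.7 ± 0.63 in PC and 36.0 ± 1.35 in RC, lowest in PC. Subfamily C stayed between 19.0 and 21.2 as a sum, but its top gene changed: ABCC4 held 36.1% of it in CC and ABCC2 held 52.0% in PC. Subfamily A was 25.5 ± 4.44 in CC, 33.7 ± 0.534 in TC, 21.9 ± 1.03 in PC and 18.2 ± 0.473 in RC. ABCA2 alone held 58.2% of it in CC, 59.8% in TC, 62.9% in PC and 66.8% in RC. Subfamily G was near 1 CPM per kb or below in every group, at most 1.01 ± 0.0589 in RC and at least 0.431 ± 0.0191 in PC. These sums are given as descriptions, with no test.

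**Figure D1:**
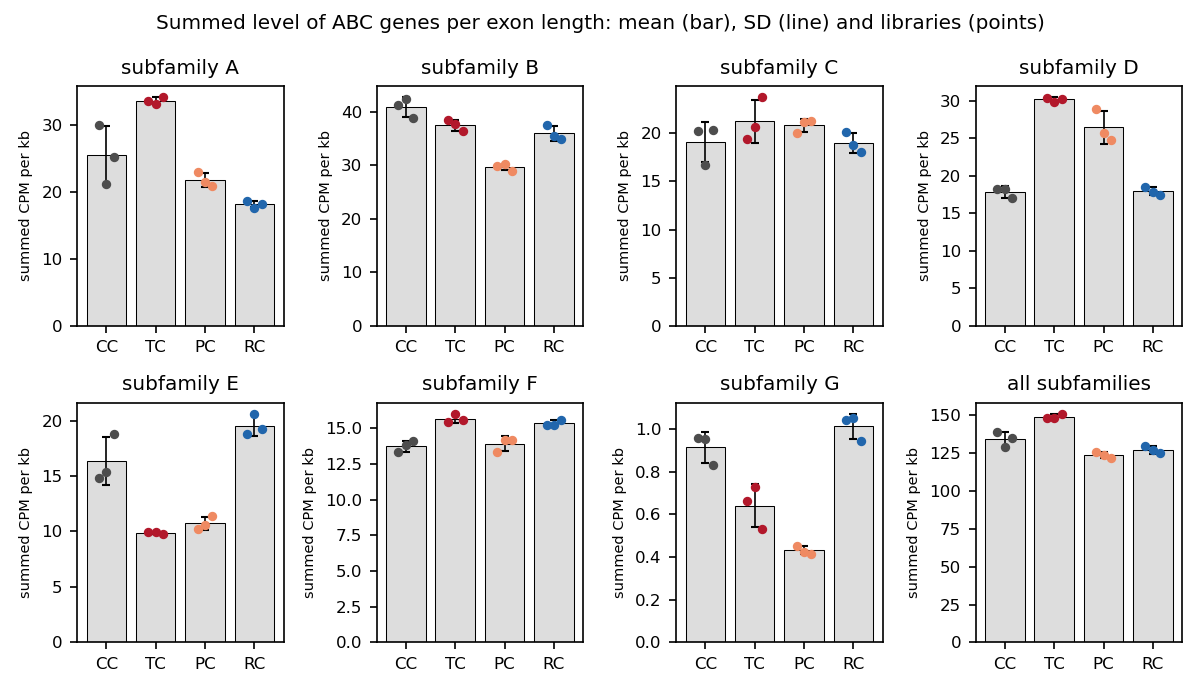
Summed level of the members of each subfamily in CPM per kb of exon (y axis, linear from 0) for the 4 groups (x axis); bars are means, lines SD and points the 3 libraries of a group. Subfamily D is highest in TC at 30.2 and subfamily E lowest in TC at 9.89.

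Each count of members called is set beside the share of all genes called the same way. At an adjusted p under 0.05 in TC against CC, 11 of the 32 tested members were higher (34.4%, against 33.2% of the 15916 genes tested) and 10 lower (31.2%, against 34.7%). Beyond 1.5-fold, tested against that fold itself, 7 were higher (21.9%, against 16.1%) and 4 lower (12.5%, against 19.3%). In PC against CC, 9 were higher (28.1%, against 33.2%) and 15 lower (46.9%, against 35.9%). Beyond 1.5-fold 6 were higher (18.8%, against 17.2%) and 10 lower (31.2%, against 19.9%). The 9 include ABCC11, which reached the minimum only through PC. Both counts of lower members in PC include ABCG5, which reached it only through RC. The median log2 change of the members was -0.03 in TC and -0.37 in PC against CC, beside -0.02 and -0.04 over all genes tested. In TC the shares called at an adjusted p under 0.05 were near those of all genes, and in PC the share lower was above it, a difference that was not tested.

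In RC against CC, 5 members were higher (15.6%, against 18.2% of genes) and 7 lower (21.9%, against 19.1%). Beyond 1.5-fold none was higher (against 1.35%) and 3 were lower (9.38%, against 2.52%): ABCA3, ABCA8 and ABCB1. The count of 0 is from edgeR. In the same test against 1.5-fold, 2 members (ABCA13 and ABCB6) were higher at an unadjusted p under 0.05. DESeq2 also gave 0. Between TC and PC, 1 member was higher in PC (3.12%, against 12.2%) and 14 lower (43.8%, against 12.5%, and 9 members without PC replicate 3), and the median of the members was -0.35, beside 0.00 over all genes. Here the share lower was above that of all genes, and that difference was not tested. Of these, 2 were lower beyond 1.5-fold (6.25%, against 1.15%), ABCB1 and ABCB4, and none was higher (against 2.33%). In the same test against 1.5-fold, 0 were higher at an unadjusted p under 0.05, and DESeq2 also gave 0. Between PC and RC, 14 were higher in RC (43.8%, against 35.7%) and 10 lower (31.2%, against 34.2%). Beyond 1.5-fold 10 were higher (31.2%, against 20.2%) and 7 lower (21.9%, against 18.5%). Both counts of members higher in RC include ABCG5, which reached the minimum only through RC. The 10 lower in RC include ABCC11, which reached it only through PC. TC, PC and RC were each compared with the same 3 CC libraries, and PC enters 3 of the comparisons, so the comparisons are not independent of each other.

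**Figure D2:**
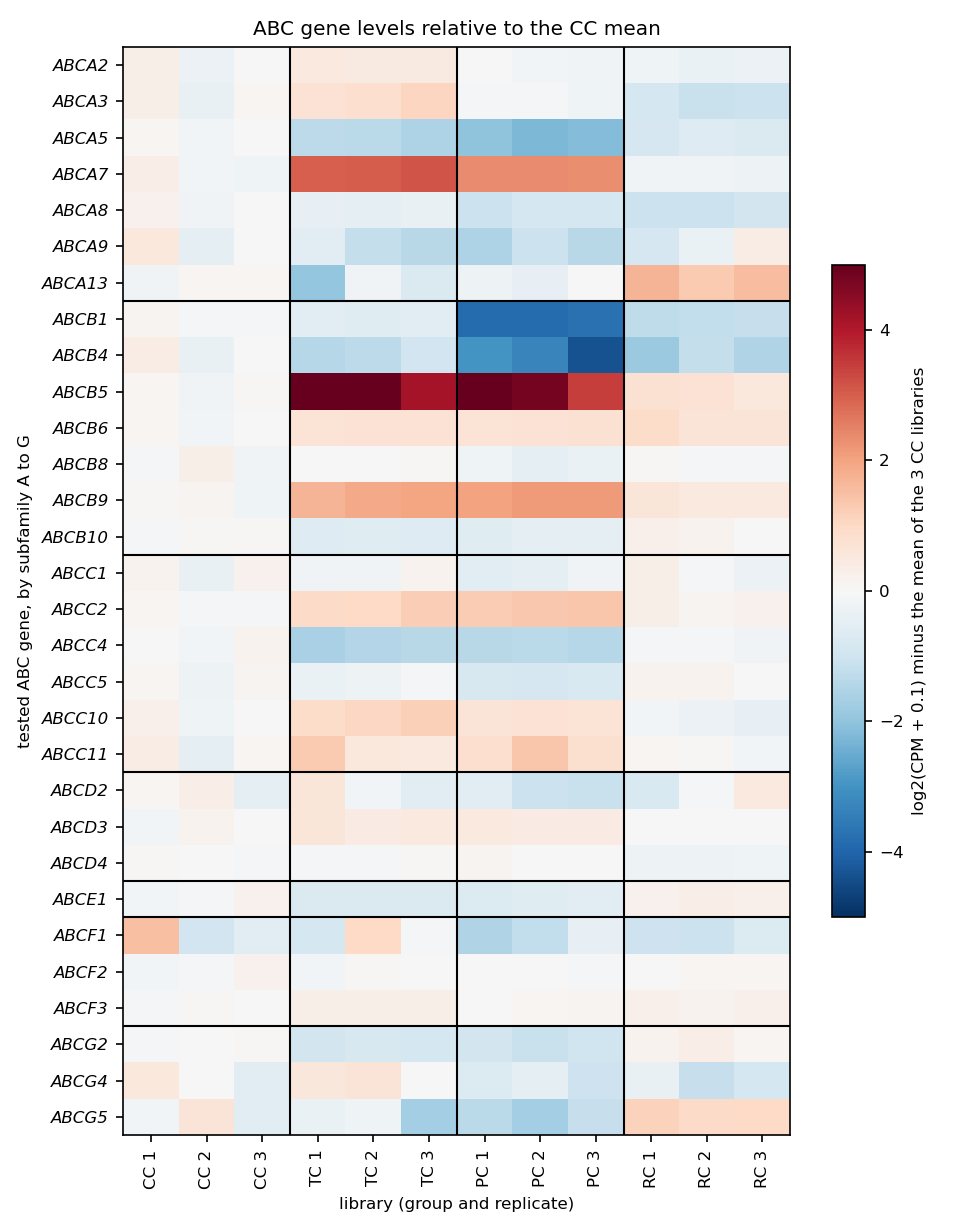
Level of 30 of the 32 tested members (rows, by subfamily A to G) in the 12 libraries (columns, by group and replicate), as log2(CPM + 0.1) minus the mean of the 3 CC libraries. ABCB5 and ABCA7 are the deepest red rows in TC, with ABCB9 and ABCC2 also red in TC and PC, and ABCB1 and ABCB4 are the deepest blue in PC.

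ABCB1 (chr7:87503017-87713323, minus strand, GENCODE on hg38), the P-glycoprotein pump of many drugs, was measured at 71.8, 63.1 and 62.5 CPM in CC. Its TC libraries were at 44.4, 43.0 and 46.0, its PC libraries at 4.47, 4.43 and 4.88 and its RC libraries at 27.0, 28.2 and 29.3. No 2 groups overlapped, and the order was CC, TC, RC, PC from high to low. Against CC the log2 change was -0.57 ± 0.07 (SE) in TC (adjusted p = 1.84e-05, not beyond 1.5-fold), -3.84 ± 0.08 in PC (1.39e-11) and -1.22 ± 0.07 in RC (2.2e-06). PC was 3.27 log2 below TC (-3.27 ± 0.08, adjusted p = 8.17e-10), and RC was 2.61 ± 0.08 above PC (1.5e-10). The larger step down in ABCB1 lay between the end of treatment and the harvest 2 days after the drugs were removed.

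ABCB4, the flippase of phosphatidylcholine that is best known from bile, is the neighbour of ABCB1 on chromosome 7, 22.6 kb away on the same strand. It was at 2.54, 1.49 and 1.99 CPM in CC, with TC at 0.674, 0.741 and 0.97, PC at 0.157, 0.109 and 0 and RC at 0.468, 0.801 and 0.624. Its PC libraries had 6, 5 and 0 counts and did not overlap any other group. It fell by 4.48 ± 0.58 log2 in PC against CC (-4.48, adjusted p = 1.98e-05) and by 3.16 ± 0.58 against TC (-3.16, 0.00202), and rose by 2.83 ± 0.58 from PC to RC (0.000887). Its lower level in TC (-1.33 ± 0.46, adjusted p = 0.0214) and in RC (-1.66 ± 0.46, 0.0144) was lost with 1 library left out (in TC without CC replicate 1 or TC replicate 1 or 2, up to 0.0733, and in RC without CC replicate 1 or RC replicate 1, up to 0.0577). Both were called beyond 1.5-fold without PC replicate 3 (0.0135 and 0.0257), and the call from TC to PC beyond that fold was lost in a fit of the 2 groups alone (0.073). Within 500 kb of ABCB1, 4 of 12 tested genes fell beyond 1.5-fold from TC to PC (1.15% of all genes did): ABCB1 and ABCB4, whose falls prompted the look, and RUNDC3B (-1.26), which overlaps the ABCB1 locus on the other strand, and CROT (-1.03), a peroxisomal carnitine acyltransferase. CROT had risen in TC (1.34 against CC) and was not below CC in PC (0.31), whereas RUNDC3B was (-1.80). GENCODE gives ABCB1 and RUNDC3B no shared exon bases. The count of 4 includes ABCB1 and ABCB4, and its difference from the share of all genes was not tested. Within 500 kb of ABCB5, 0 of 5 tested genes fell beyond 1.5-fold from TC to PC, and within 500 kb of ABCA7 0 of 39 did.

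A pair of promoter windows of ABCB1 is listed in RefSeq on GRCh38.p14, and the count per gene does not say which start was used. They are shown because ABCB1 carries the largest fall between TC and PC, together with that of ABCA7, the largest riser that has a window. Each runs 5′ to 3′ on the gene's strand with 250 bases before the start site and 50 from it on, with every match to the motifs searched in capitals. The first lies at chr7:87713246-87713545, the second at chr7:87600835-87601134, both on the minus strand, and the ABCA7 window at chr19:1039857-1040156 on the plus strand.
ABCB1 window 1: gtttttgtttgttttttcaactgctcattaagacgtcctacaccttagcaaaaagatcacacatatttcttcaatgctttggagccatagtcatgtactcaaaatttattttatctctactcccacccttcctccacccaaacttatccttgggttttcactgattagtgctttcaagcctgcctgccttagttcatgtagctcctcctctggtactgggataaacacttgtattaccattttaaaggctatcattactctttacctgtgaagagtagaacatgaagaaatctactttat
ABCB1 window 2: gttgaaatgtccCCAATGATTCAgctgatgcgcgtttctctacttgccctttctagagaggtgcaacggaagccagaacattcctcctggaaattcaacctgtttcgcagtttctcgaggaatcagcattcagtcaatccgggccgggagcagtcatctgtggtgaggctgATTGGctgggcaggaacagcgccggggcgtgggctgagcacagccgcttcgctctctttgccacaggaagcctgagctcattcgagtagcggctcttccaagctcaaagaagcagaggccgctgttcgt
ABCA7: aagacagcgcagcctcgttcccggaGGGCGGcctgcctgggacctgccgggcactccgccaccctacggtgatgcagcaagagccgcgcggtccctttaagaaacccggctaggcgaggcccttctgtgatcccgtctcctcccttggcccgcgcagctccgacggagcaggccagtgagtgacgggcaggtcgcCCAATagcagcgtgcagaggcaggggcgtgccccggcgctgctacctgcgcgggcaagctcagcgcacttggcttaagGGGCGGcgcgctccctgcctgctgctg

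The motifs searched, on both strands, were the E-box CACGTG, the M-box core CATGTG, the GC box GGGCGG, the CCAAT box, the ETS core CCGGAAG, the cAMP response element TGACGTCA, the AP-1 site TGANTCA, the antioxidant response core TGACNNNGC and the TATA box TATAAA. The first ABCB1 window held none of them. The second held 2 CCAAT boxes, at -238 and -79 from the start, and 1 AP-1 match at -234 that overlaps the first of these. ABCA7 held GC boxes at -225 and 23 and a CCAAT box at -55. Windows were listed for 35 of the 46 members, 53 windows in all. The E-box occurred in 17.0% of these 53 and in 7.26% of all 35116 windows of the same length, the antioxidant core in 22.6% against 13.3%, the CCAAT box in 22.6% against 34.6% and the GC box in 47.2% against 45.0%. These are shares of letters in windows and were not tested.

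ABCB5 (chr7:20615667-20777038, plus strand), known as a marker and exporter of pigment cells and melanoma, had the largest rise. It was at 0.716, 0.565 and 0.698 CPM in CC, at 41.6, 32.2 and 13.5 in TC, at 25.4, 20.6 and 8.21 in PC and at 1.18, 1.14 and 1.0 in RC. Every TC and PC library was above every CC and RC library, and replicate 3 was the lowest in both TC and PC. ABCB5 rose by 5.46 ± 0.51 log2 in TC (adjusted p = 1.21e-06) and 4.77 ± 0.50 in PC (3.17e-06), and it fell by 4.03 ± 0.47 log2 from PC to RC (-4.03, 7.83e-06). The RC libraries were above all CC libraries, but at 0.74 ± 0.52 the difference did not pass (adjusted p = 0.282), and it did in a fit of these 2 groups alone (0.0451). PC and TC overlapped (-0.69 ± 0.39, adjusted p = 0.236), and without TC replicate 3 the difference passed (0.0474). Most melanocyte lineage genes moved in the same groups: DCT rose by 3.99 log2 in TC and 2.68 in PC, and PMEL by 3.13 and 2.04. SOX10, MLANA and TYR rose by 0.67, 1.46 and 1.22 in TC and by 0.51, 1.53 and 0.63 in PC. MITF did not rise: it was at -0.17 in TC (adjusted p = 0.558) and lower in PC (-0.71, 0.023). The part of the melanocyte lineage genes in the ABCB5 result was not tested. ABCB5 had 25 to 33 counts in the CC libraries, so the size of its fold rests on low control counts.

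**Figure D3:**
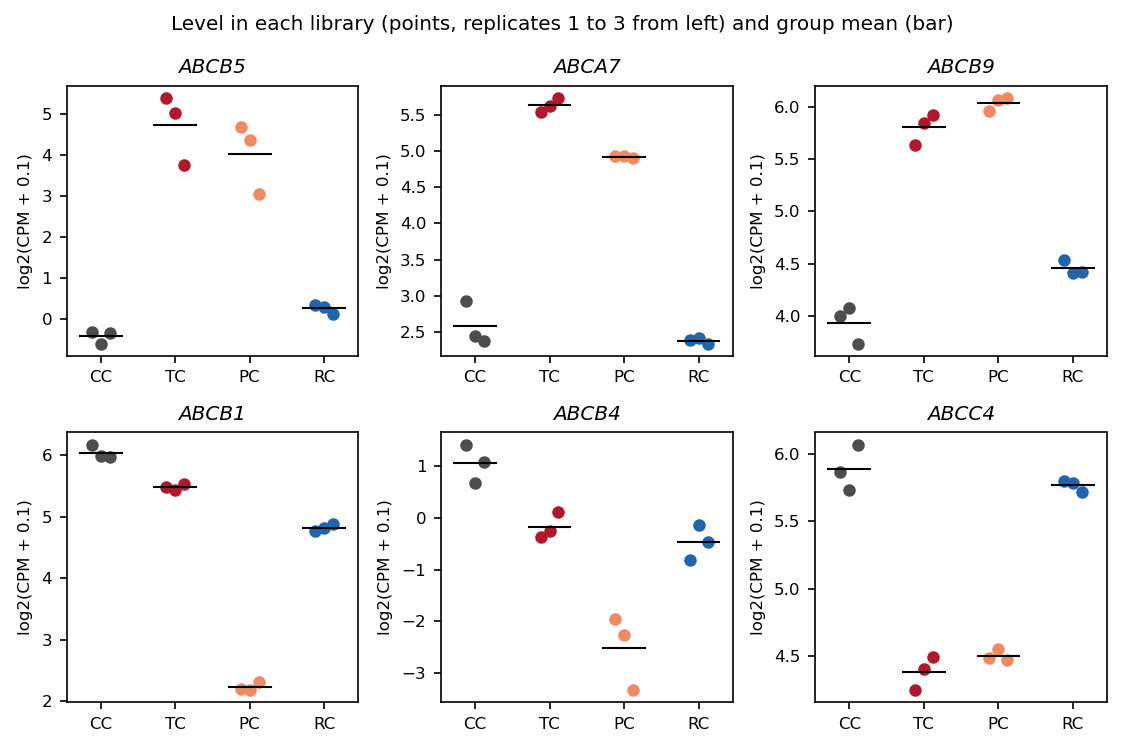
Level of 6 members in each library as log2(CPM + 0.1) (y axis, its range set per gene) by group (x axis); points are replicates 1 to 3 from left, bars group means. ABCB5, ABCA7 and ABCB9 are high in TC and PC, ABCB1 and ABCB4 are lowest in PC and ABCC4 is low in TC and PC.

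Among the 11 plasma membrane drug exporters, 8 were tested. In TC against CC 2 rose and 3 fell at an adjusted p under 0.05, in PC 3 rose and 4 fell and in RC 1 (ABCB1) fell, with medians of -0.16, -0.61 and -0.03. Over all genes tested, TC had 33.2% higher and 34.7% lower, PC had 33.2% higher and 35.9% lower, and RC had 18.2% higher and 19.1% lower. With 8 genes, the counts in TC lie near those shares. The 3 that rose in PC, and the medians, include ABCC11, which reached the minimum only through PC. ABCC2, the canalicular exporter of conjugates (MRP2), was at 36.3, 31.8 and 32.6 CPM in CC, with TC at 64.4, 67.3 and 79.6, PC at 81.3, 85.8 and 87.5 and RC at 41.1, 36.5 and 39.3. No TC or PC library overlapped CC. ABCC2 rose by 1.07 ± 0.09 log2 in TC (adjusted p = 3.52e-07) and by 1.34 ± 0.09 in PC (4.8e-08), and was the 1 member above TC in PC (0.27 ± 0.08, 0.0375), a call lost without any 1 of TC replicates 1 and 2 and the 3 PC replicates (adjusted p up to 0.13). RC was at 0.22 ± 0.09 (0.0694), which passed without CC replicate 1 or TC replicate 3 (0.0436 and 0.0328) and with library totals (0.0315).

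ABCC4 (MRP4), which exports cyclic nucleotides and prostaglandins, moved the other way, at 58.1, 53.1 and 67.0 CPM in CC, with TC at 18.9, 21.1 and 22.4, PC at 22.3, 23.4 and 22.1 and RC at 55.6, 55.0 and 52.5. It fell by 1.51 ± 0.09 log2 in TC (-1.51, adjusted p = 2.41e-08) and by 1.39 ± 0.09 in PC (-1.39, 4.54e-08), and RC overlapped CC (-0.13 ± 0.09, 0.275). ABCC10 (MRP7), a drug exporter, was at 23.2, 16.8 and 19.1 CPM in CC, with TC at 36.6, 40.2 and 44.9, PC at 30.4, 32.7 and 31.3 and RC at 17.6, 15.8 and 14.7. It was above CC in every TC and PC library, by 1.04 ± 0.12 log2 in TC (adjusted p = 7.18e-06) and 0.67 ± 0.12 in PC (0.000259, beyond 1.5-fold without CC replicate 1 alone, at 0.0255). In RC it was at -0.30 ± 0.12 (0.0654), which passed without CC replicate 2 (0.0151). ABCC5 (MRP5), a nucleotide and haem exporter, was at 45.1, 35.8 and 46.7 CPM in CC, with TC at 33.8, 35.2 and 39.4, PC at 24.1, 23.8 and 25 and RC at 47.3, 47.1 and 42.2. It fell in PC (-0.81 ± 0.10, adjusted p = 1.47e-05) and was at -0.23 ± 0.10 in TC (0.0526, passed without CC replicate 2 at 0.00227 or TC replicate 3 at 0.03) and 0.10 ± 0.10 in RC (0.466). Its call beyond 1.5-fold in PC was lost without CC replicate 1 (adjusted p = 0.0553) or 3 (0.0762) and by DESeq2 (0.215).

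ABCC1 (MRP1), the exporter of glutathione conjugates, was at 16.2, 11.2 and 16.6 CPM in CC, with TC at 12.7, 12.8 and 16.2, PC at 9.86, 10.6 and 12.8 and RC at 17.5, 14.0 and 11.8. The groups overlapped and no comparison passed: -0.08 ± 0.18 in TC (adjusted p = 0.716), -0.41 ± 0.18 in PC (0.0675) and -0.02 ± 0.18 in RC (0.935). A numbered copy of ABCC1 held 32.8% of the counts, and with it added, an alternative chosen after seeing the data, PC against CC was -0.54 (adjusted p = 0.018), and it also passed without CC replicate 2 (0.0131) or PC replicate 3 (0.0416). ABCG2 (BCRP), the pump of many drugs and urate, was low, at 3.53, 3.66 and 3.77 CPM in CC, with TC at 1.89, 2.07 and 1.92, PC at 1.88, 1.65 and 1.8 and RC at 4.09, 4.68 and 3.93. Every TC and PC library was under every CC library. ABCG2 fell by 0.90 ± 0.14 log2 in TC (-0.90, adjusted p = 9.35e-05) and by 1.04 ± 0.14 in PC (-1.04, 2.7e-05), and RC did not differ past the threshold (0.21 ± 0.13, 0.235). The call beyond 1.5-fold in TC was lost in a fit of the 2 groups alone (adjusted p = 0.0584), with the looser filter (0.0767) and by DESeq2 (0.231). ABCC11, with mean CPM under 1 in every group, was at 1.13 ± 0.49 in TC (adjusted p = 0.0561) and passed there without CC replicate 1 (0.0389) or TC replicate 3 (0.0486), and PC, through which it reached the minimum, is given with no test (1.43 ± 0.48).

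Of 17 lipid and sterol transporters, 10 were tested. They include ABCG5, which reached the minimum only through RC and is counted here as lower in PC and in the medians. In TC 3 rose and 4 fell, in PC 1 rose and 6 fell, and in RC 1 rose and 4 fell at an adjusted p under 0.05, with medians of -0.66, -0.91 and -0.51, beside the same shares of all genes as above (TC 33.2% higher and 34.7% lower, PC 33.2% higher and 35.9% lower, RC 18.2% higher and 19.1% lower). ABCA7 (chr19:1039997-1065572, plus strand), a lipid exporter known as an Alzheimer disease risk gene, was at 7.48, 5.33 and 5.06 CPM in CC, with TC at 46.8, 49.2 and 53.2, PC at 30.4, 30.5 and 29.8 and RC at 5.12, 5.2 and 4.94. TC and PC lay above CC and RC without overlap. It rose by 3.07 ± 0.13 log2 in TC (adjusted p = 1.38e-09) and 2.35 ± 0.13 in PC (1.01e-08), was lower in PC than in TC (-0.72 ± 0.12, 0.000922), and RC overlapped CC (-0.23 ± 0.13, 0.184, passed without CC replicate 3 at 0.0489).

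ABCA3, known for loading surfactant lipids into lamellar bodies, was at 20, 12.4 and 17.4 CPM in CC, with TC at 27.1, 29.5 and 34.4, PC at 15.5, 15.8 and 14.2 and RC at 8.76, 7.55 and 7.73. TC lay above and RC below every CC library, while PC overlapped CC. It was 0.87 ± 0.15 log2 above CC in TC (adjusted p = 0.000272) and fell to -1.05 ± 0.15 in RC (0.000334), with PC at -0.13 ± 0.15 (0.456, passed without CC replicate 2 at 0.0388). The calls beyond 1.5-fold depended on single libraries: in TC the call was lost without CC replicate 2 (adjusted p = 0.157), TC replicate 2 (0.0507) or TC replicate 3 (0.129), and in RC without CC replicate 1 (0.162), CC replicate 3 (0.0744) or any 1 RC library (0.0545 to 0.121), and DESeq2 gave 0.197 and 0.133.

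ABCA5, ABCA6, ABCA8, ABCA9 and ABCA10 lie side by side on chromosome 17, all on the minus strand. ABCA5, a lysosomal sterol transporter, was at 52.4, 43.9 and 49.7 CPM in CC, with TC at 19.8, 18.8 and 16.5, PC at 11.8, 10.2 and 10.7 and RC at 27.4, 30.9 and 29.3. No 2 groups overlapped, and it fell by 1.41 ± 0.10 log2 in TC (-1.41, adjusted p = 7.83e-08), 2.16 ± 0.10 in PC (-2.16, 2.76e-09) and 0.74 ± 0.09 in RC (-0.74, 0.000143). ABCA8 was at 51.7, 39.9 and 44 CPM in CC, with TC at 33.7, 33.0 and 34.7, PC at 21.2, 24.2 and 24.7 and RC at 21.1, 21.5 and 23.8. ABCA8 was under CC in all 3 groups, by -0.42 ± 0.10 in TC (adjusted p = 0.00214), -0.95 ± 0.10 in PC (2.93e-06) and -1.03 ± 0.10 in RC (3.1e-05), and PC and RC overlapped (-0.08 ± 0.10, 0.491). ABCA9 was low, at 0.987, 0.429 and 0.635 CPM in CC and 0.157, 0.261 and 0.185 in PC, with TC at 0.415, 0.23 and 0.187 and RC at 0.32, 0.498 and 0.87. It was at -1.31 ± 0.47 in TC (adjusted p = 0.0263, lost without CC replicate 1 or TC replicate 2 or 3, up to 0.114) and -1.74 ± 0.48 in PC (0.00674). Its call beyond 1.5-fold in PC was lost without CC replicate 1 (0.102), PC replicate 1 (0.0791) or PC replicate 3 (0.0703). DESeq2 did not give that call either (0.14). ABCA6 and ABCA10 of the same cluster were under the minimum.

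Other members of the group were given by range. ABCA2 rose in TC (0.44 ± 0.11, adjusted p = 0.00461) and was at -0.11 in PC and -0.29 in RC, neither past the threshold (both passed without CC replicate 2, at 0.0321 and 0.00366). ABCA13 was at 0.765 to 0.931 CPM in CC and 2.33 to 3.08 in RC, higher in RC by 1.63 ± 0.37 (adjusted p = 0.00521). ABCG4, which exports sterols in brain, was at 0.762 to 1.7 CPM in CC and 0.509 to 0.804 in PC, at -0.86 ± 0.35 (adjusted p = 0.0423), a call lost with any 1 of 7 libraries left out (up to 0.196 without CC replicate 1). ABCG5, the partner of ABCG8 in sterol export, had 8, 18 and 6 counts in CC, with TC at 6, 7 and 0, PC at 1, 0 and 2 and RC at 25, 30 and 29. Against the floor of 3 counts per library PC was at least 3.43-fold lower than CC, and the RC libraries, through which ABCG5 reached the minimum, were the highest and are given with no test. The test gave adjusted p = 0.0132 for PC against CC, on few counts and for a gene tested only because of RC. It was lost without CC replicate 2 (0.0557). The call beyond 1.5-fold was also lost without PC replicate 1 or 2 (0.069 and 0.0979) and by DESeq2 (0.0511).

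Members of the mitochondrial and haem group did not move together. ABCB6, a porphyrin transporter, was at 26.1, 22.4 and 24.8 CPM in CC, with TC at 38.7, 39.9 and 40.8, PC at 39.3, 40.5 and 41.8 and RC at 45.9, 37.9 and 38.0. It rose and stayed up: 0.70 ± 0.09 in TC (adjusted p = 1.24e-05), 0.73 ± 0.09 in PC (8.64e-06) and 0.73 ± 0.09 in RC (8.13e-05), with PC and RC overlapping each other. Its call beyond 1.5-fold in PC, at an adjusted p of 0.0451, was lost in 8 of 20 alternatives, among them without CC replicate 2 (0.14), PC replicate 2 (0.0751) or 3 (0.104), TC replicate 2 (0.0557) or 3 (0.0516), and another GENCODE gene on the same strand shares 54.6% of its exon bases. ABCB10, a mitochondrial transporter needed for haem synthesis, fell in TC (-0.64 ± 0.07, adjusted p = 8.85e-06) and PC (-0.51 ± 0.07, 5.85e-05), and ABCB8, part of a mitochondrial potassium channel, in PC (-0.34 ± 0.11, 0.0165, lost without CC replicate 2 at 0.0603 or PC replicate 2 at 0.0684).

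In the lysosome, ABCB9, a peptide transporter, was at 15.9, 16.7 and 13.2 CPM in CC, with TC at 49.6, 57.5 and 60.5, PC at 62.1, 66.8 and 67.6 and RC at 23.1, 21.2 and 21.3. No library of TC or PC overlapped CC or RC, and RC was above CC. It rose by 1.87 ± 0.10 log2 in TC (adjusted p = 9.56e-09), 2.10 ± 0.10 in PC (3.88e-09) and 0.52 ± 0.10 in RC (0.00171), and TC and PC differed by 0.23 ± 0.10 (0.105, passed without CC replicate 3 at 0.033). ARL6IP4 and OGFOD2, on the opposite strand, share 12% and 12.5% of the ABCB9 exon bases, and without stated strand use their reads and those of ABCB9 cannot be told apart there. ABCD4, which passes cobalamin from lysosomes, was at -0.04 in TC and 0.03 in PC and fell in RC (-0.24 ± 0.07, adjusted p = 0.0144).

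Among the peroxisomal fatty acid importers, ABCD3 rose and ABCD2 did not. ABCD3, a major protein of the peroxisomal membrane, rose in TC (0.50 ± 0.07, adjusted p = 7.14e-05) and PC (0.43 ± 0.07, 0.000252). ABCD2 was low, under 1 CPM in every library, and was lower in PC (-1.21 ± 0.50, 0.0462), a call lost with any 1 of 6 libraries left out (up to 0.133 without CC replicate 2).

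Among the 4 translation ATPases, ABCE1, which recycles ribosomes after termination, was at 92.8, 96.5 and 118 CPM in CC, with TC at 62.4, 62.0 and 61.2, PC at 63.7, 66.1 and 71.2 and RC at 117, 129 and 120. The TC and PC libraries were under all CC libraries, and RC overlapped CC at its lower end. ABCE1 fell by 0.73 ± 0.09 log2 in TC (-0.73, adjusted p = 9.63e-06) and 0.61 ± 0.09 in PC (-0.61, 3.95e-05), with the TC value at 0.0503 against 1.5-fold, called without CC replicate 1 (0.0147) or 2 (0.0295), with library totals (0.0375) and with the replicate block (0.0475). The higher level in RC (0.25 ± 0.08, adjusted p = 0.0333) was lost without CC replicate 1 or 2 or RC replicate 2 or 3 (up to 0.123). ABCF3 rose in TC (0.29 ± 0.06, 0.000642) and RC (0.23 ± 0.06, 0.00895), and ABCF2 moved by at most 0.09 log2 in any comparison. The row named ABCF1 held few of the counts under that name: 89.3% were in 6 numbered copies, so its change is not described from that row alone, which stays among the tested members and in the sum of subfamily F. With the copies added, ABCF1 was at 0.69 in TC (adjusted p = 0.059), -0.15 in PC (0.675) and 0.93 in RC (0.029).

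**Figure D4:**
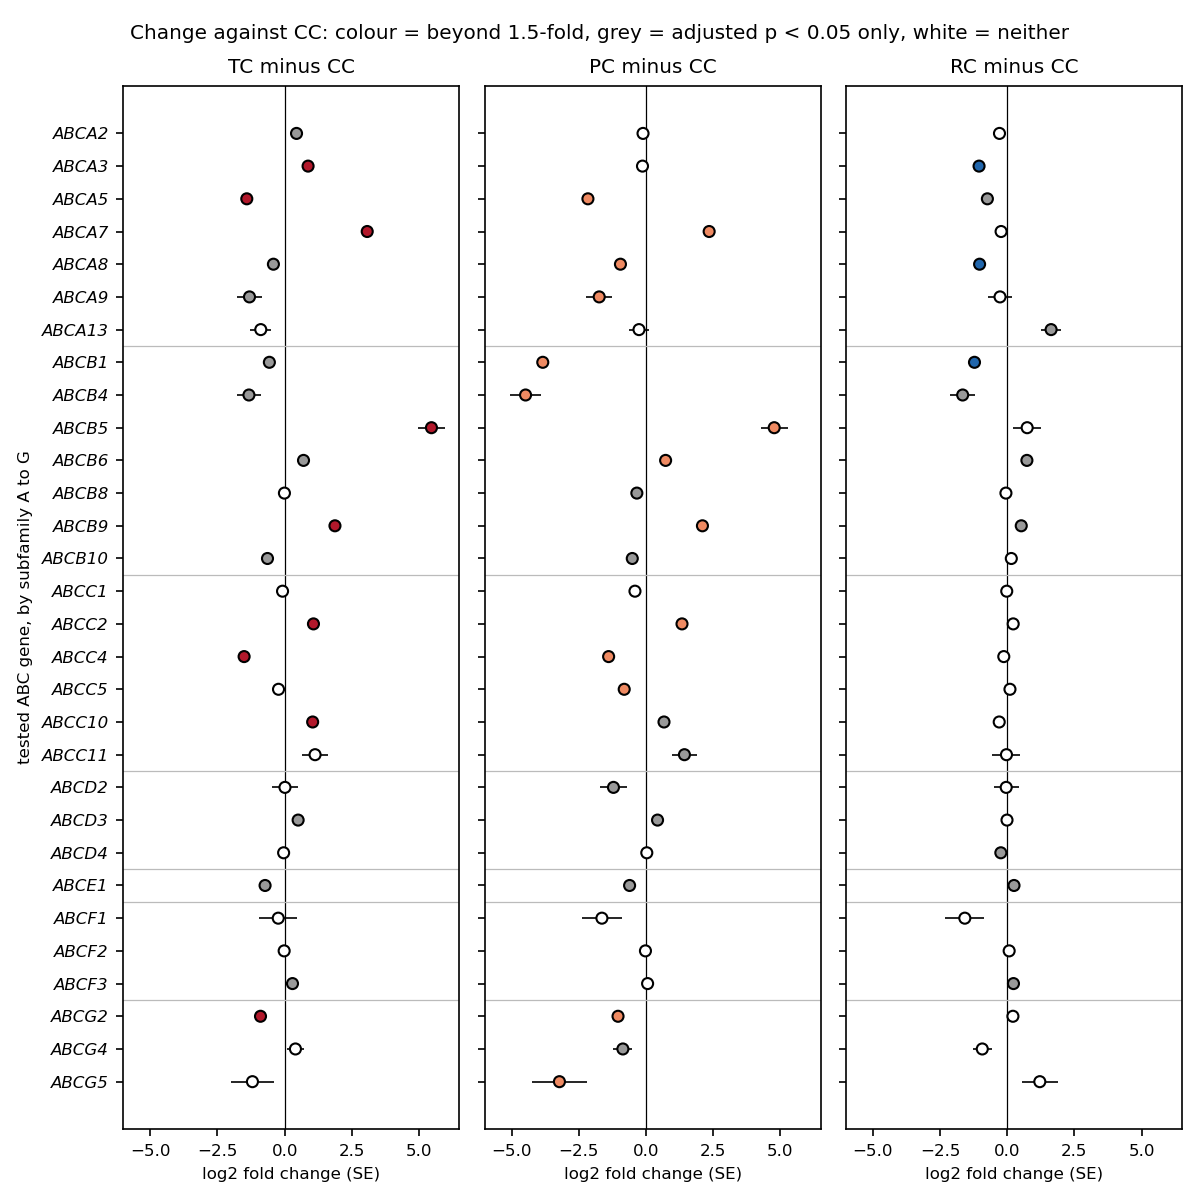
Log2 change against CC (x axis, with SE as lines) of 30 of the 32 tested members (rows, by subfamily) in TC, PC and RC; coloured points passed beyond 1.5-fold, grey ones at an adjusted p under 0.05 alone and white ones neither. The RC panel has 3 coloured points, ABCA3, ABCA8 and ABCB1, all to the left of 0.

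Genes that work with the members were counted from lists of related genes, as numbers that rose or fell in TC. Of all genes tested, 33.2% were higher and 34.7% lower in TC, with a median of -0.02, and from TC to PC 12.2% were higher and 12.5% lower. Of 14 liver X receptor genes and targets, 13 were tested, and in TC 7 rose and 5 fell at an adjusted p under 0.05 (median 0.29). The list was split between risers and fallers. Beyond 1.5-fold, 3 were above, among them RXRA (2.59), and 4 below, among them APOC1 (-4.36). Of all genes tested, 16.1% were higher and 19.3% lower beyond that fold. ABCA1 and ABCG1, the best known targets, were under the minimum or listed at 0, and a row at 0 does not by itself show that the gene was silent. Of 18 organic ion carriers of the SLCO, SLC22 and SLC47 families, 11 were tested, and 3 rose and 7 fell (median -1.06). Beyond 1.5-fold, SLC22A4 (3.13) and SLCO3A1 (0.82) were above and SLCO4C1 (-5.54) and SLCO4A1 (-4.34) were the largest fallers. Of 25 peroxisome genes all were tested, and 11 rose and 7 fell in TC (median 0.12), with CROT (1.34) and the thiolase ACAA1 (1.06) above and ACOX2 (-2.72) below. Of 21 haem and iron-sulfur genes, 6 rose and 10 fell (median -0.16), with UROS (1.14) the 1 beyond 1.5-fold. Of 11 ribosome recycling and termination genes 8 were tested, and 2 rose and 4 fell (median -0.15), with EIF2D (-0.85) and GSPT1 (-0.77) below beyond 1.5-fold. Of 20 regulators known for ABC genes, 18 were tested, and 5 rose and 4 fell (median 0.02), with KEAP1 (0.92) and PPARD (0.89) above and SREBF2 (-1.02) and YBX1 (-0.77) below, and from TC to PC 1 rose and 11 fell. The rows named TAP1, TAP2 and CFTR, ABC proteins under other symbols, stayed under the minimum. They were read without any numbered copies, so the level of these genes is not described from those rows alone.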

How the data were processed

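RNA-seq of A375 cells (12 libraries, 4 groups of 3) was analysed from the deposited table of counts of reads per gene, which the authors left unnormalized. Per the labels and methods, the authors trimmed reads with fastp 0.20.1, aligned them to GRCh38.p13 with HISAT2 2.2.1 and counted reads on exons with HTSeq 0.13.5 and the NCBI annotation. Strand use and the handling of reads with several places are not given in the sources used here. The labels name cytoplasmic RNA where the methods name total RNA.

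Members were chosen by symbol, and the members and gene lists were chosen with earlier results of these data known. Genes with a mean library-size-scaled count of at least 10 were kept (15916), scaled by TMM and fitted over all 12 libraries with edgeR 4.0.16 (limma 3.58.1, R 4.3.3): glmQLFTest, and glmTreat against 1.5-fold, two-sided, with 8 residual degrees of freedom, a common biological coefficient of variation of 0.182 and Benjamini-Hochberg adjustment over all genes tested at 0.05. The SE is that of the log2 fold change. The script was tested on simulated data. CPM use TMM-scaled library sizes, and levels per kb are CPM divided by the exon length of GENCODE v44 on hg38, whereas reads were counted on the NCBI annotation. Genes given in every library were those called beyond 1.5-fold in TC, PC or RC against CC, and ABCB1, ABCB5, ABCC1, ABCG2, ABCA1, ABCG1 and ABCE1. From each list at most the 2 largest risers and fallers beyond 1.5-fold in TC were named. Results for some genes that these rules choose are not reported here. A member at 3 counts or fewer in all libraries of a group was compared against that floor. Promoter windows are from RefSeq (GRCh38.p14). Alternatives were RLE factors, library totals, a summed count of at least 2, filterByExpr, DESeq2 1.42.0, a replicate block, the 2 groups compared alone, each library left out and numbered copies added to their gene, which was chosen after seeing the data. Figures were drawn with matplotlib 3.10.9.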

Additional observations from a re-analysis of the deposited data

How the results depend on the processing

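The 20 counts of members called, under 20 alternatives each, gave 400 values, of which 389 were within 1.5 times the reported count. The other 11 were in 3 counts. Members higher in RC than in CC beyond 1.5-fold were 0, and 1 with only the 2 groups compared, and ran from 0 to 1 with a library left out (1 without TC replicate 1 or 2). Members higher in PC than in TC were 1, and 0 with a summed count of at least 2, and ran from 0 to 2 with a library left out. Members lower in PC than in TC were 14 and ran from 9 to 14 with a library left out, the lowest without PC replicate 3. The cause was not tested. Of 100 comparisons of a named gene, 79 kept their side of the threshold throughout, and 36 values lost and 19 gained the call. No called value changed sign, while some that did not pass did, such as ABCC1 in TC (-0.24 to 0.03).

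Of the calls beyond 1.5-fold against CC, 9 of 11 in TC, 12 of 16 in PC and 2 of 3 in RC stood under all 20 alternatives, and those lost under at least 1 were ABCA3 and ABCG2 in TC, ABCA9, ABCB6, ABCC5 and ABCG5 in PC and ABCA3 in RC. The correlation of deviations from the group mean ran from -0.0373 to 0.155 over 18 pairs of libraries with the same replicate number. Over 36 pairs of different numbers it ran from -0.121 to 0.0417. Between TC and PC, pairs of the same number were at 0.155, 0.0679 and 0.124. Those of different numbers ran from -0.121 to 0.00342 there. Pairs of the same number with RC ran from -0.0373 to 0.0123. Any pairing by number was thus weak, seen most between TC and PC and not with RC. With the replicate block the counts stayed within 1.5 times (14 became 12 for members lower in PC than in TC), and ABCC10 PC vs TC lost its call (adjusted p = 0.0501), while ABCE1 in TC was called beyond 1.5-fold (0.0475). Depth limits the 14 untested members and ABCA9, ABCB4, ABCC11, ABCD2 and ABCG5, whose folds rest on few counts.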

Other observations

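Of the 11 members under the minimum that had counts, 5 had their highest CPM in 1 library, CC replicate 1: ABCA4 with 12 of 38 counts, ABCA6 with 26 of 92, ABCC3 with 26 of 106, ABCC6 with 5 of 21 and ABCC9 with 11 of 24. The ABCF1 row, whose counts are mostly in its copies, was also highest there, with 89 of 320 counts. These genes were picked after their values were seen, and no test was made. For ABCA6, CC replicate 3 was close to CC replicate 1, with 29 counts and 0.614 CPM against 26 counts and 0.642 CPM.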
